A study of Mus musculus with 8 samples.

Results

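The respiratory chain of mitochondria was examined through the transcripts of its subunits in bone marrow derived macrophages (BMDMs), macrophages grown from bone marrow cells in culture. The members were the genes whose symbols follow the naming of the subunits of complexes I to V (Nduf, Sdh, Uqcr, Cox4 to Cox8 and Atp5, and the mitochondrially encoded mt-Nd, mt-Co, mt-Cytb and mt-Atp genes), without pseudogenes and with at least 80 counts summed over the 8 libraries. Of 53735 rows in the count tables, 97 had such a symbol and 86 had the counts, 79 of them nuclear and 7 encoded by mitochondrial DNA. Ndufa4l2 with 107 counts was just inside the minimum, Cox7a1 with 581 came next, and Cox6b2 with 64 and Cox4i2 with 44 were just outside. Atp5s and Atp5sl carry the name without being subunits of the enzyme, Cox7a2l is an assembly factor of supercomplexes, and the pattern leaves out Cyc1 and Ndufab1.

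RNA-seq compared WT with KO BMDMs to ask how loss of MKL1, a coactivator of serum response factor, changes the transcriptome. WT mice were Mkl1+/+, Apoe-/- and KO mice Mkl1-/-, Apoe-/-, so all of them lacked Apoe. All were males of 6 months that received Ang II by osmotic minipump (1.44 mg/kg/day) for 7 days before bone marrow was taken. The cells were then differentiated for 7 days. The deletion was global, so the marrow and every other tissue of the KO mice lacked Mkl1. Experiment 1 held libraries WT 1, WT 2, KO 5 and KO 6, and experiment 2 held WT 3, WT 4, KO 7 and KO 8. The labels do not say whether each library came from 1 mouse or from pooled mice, so the p-values below measure the spread between these libraries.

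Complexes I to IV of the inner mitochondrial membrane pass electrons from NADH and succinate to oxygen. Complexes I, III and IV pump protons, and complex V, the ATP synthase, uses the proton gradient to make ATP. Most subunits are made from nuclear genes and imported, whereas a small set of hydrophobic core subunits is made inside the organelle from mitochondrial DNA, which is transcribed as long precursors from both strands. In macrophages the balance of respiration and glycolysis differs between activation states, and complexes I and III are known sources of reactive oxygen species.

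The libraries held between 33977799 and 41584540 counts. Values below are CPM, counts scaled to a common library size after TMM, and differences are log2 fold changes ± SE of KO against WT from edgeR's quasi-likelihood test over 14418 genes, with Benjamini-Hochberg adjustment over all of them and a threshold of 0.05. Mkl1 was present at 25.6 to 29.6 CPM in the 4 WT libraries and at 10.4 to 20.9 CPM in the 4 KO libraries, without overlap. It fell in experiment 1 (-0.39 ± 0.08, edgeR adjusted p = 0.00381, lost in the fit of 4 groups and without any of its libraries, 0.0812 to 0.262) and in experiment 2 (-1.17 ± 0.19, 0.0218). The labels do not say which part of the gene was deleted, so the remaining counts check the labels only by their direction. All 10 macrophage markers passed the filter, with a summed level of 15296 to 36075 CPM. The summed level of 9 fibroblast markers was 211 and 264 CPM in KO 5 and KO 6 and between 4.68 and 23.3 CPM in the other 6 libraries. The summed level of 10 proliferation markers was 2889 and 2917 CPM in WT 3 and WT 4 and between 1026 and 1713 CPM elsewhere. Markers of neutrophils, dendritic cells, adipocytes and striated muscle each summed to at most 1.53 CPM, and all 4 erythroid markers were at 0.

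Only 7 of the 13 mitochondrial protein genes reached the minimum. Mt-Co1 had 1670317 counts over the 8 libraries and mt-Nd6, the lowest of the 7, had 6799. At the other end, mt-Atp6, mt-Atp8, mt-Co3 and mt-Nd4l had 0 counts in all libraries together, mt-Co2 had 1 and mt-Nd3 had 13. These 6 genes encode subunits of the same enzymes as the 7 counted ones: mt-Co2 and mt-Co3 are core subunits of cytochrome c oxidase, mt-Atp6 and mt-Atp8 sit in the membrane part of the ATP synthase, and mt-Nd3 and mt-Nd4l are core subunits of complex I.

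The counts were set beside the sequences of GENCODE M21 on GRCm38, in which a stretch of chromosome 1, chr1:24611535-24615565, carries annotated copies of mitochondrial genes on its minus strand. The copy Gm28661 was identical to mt-Co2 over 681 of 681 bases, Gm10925 to mt-Atp6 over 678 of 678, Gm28437 to mt-Co3 over 783 of 783 and Gm10222 to mt-Nd4l over 294 of 294. Gm28438 matched mt-Nd3 at 344 of 345 bases, and the single difference was T3C, with positions counted from 1 at the first base of the gene. The first bases of this pair are shown here, with the differing base in capitals, because they hold the only difference in the whole comparison of the 5 genes.
mt-Nd3: atTaacctgtacactgt
Gm28438: atCaacctgtacactgt
The same block held Gm28439, identical to 876 bases, or 63.6%, of mt-Nd4.

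The share of 50-base windows that occur in no other annotated gene was 0% in mt-Co2, 0.14% in mt-Co3, 0.47% in mt-Atp6, 1.21% in mt-Nd4l and 2.01% in mt-Nd3. It was 100% in mt-Nd1, mt-Nd6 and mt-Cytb, 92.4% in mt-Nd5, 91.8% in mt-Nd2, 48.9% in mt-Co1 and 37.8% in mt-Nd4. The 5 genes with a share near 0 were thus among the 6 with at most 13 counts. The exception was mt-Atp8, which had 0 counts although all of its windows were found in no other annotated gene. In the copied block, 233 bases without any annotated gene lie between Gm10925 and Gm28661, at the place that mt-Atp8 with its 204 bases takes between mt-Atp6 and mt-Co2 on mitochondrial DNA. The sequence of these 233 bases was not compared with mt-Atp8. The end of mt-Atp8 also lies inside mt-Atp6, so that 43 bases belong to both genes, printed here whole because a read on them carries both names, with all letters in capitals since all are shared.
mt-Atp8 and mt-Atp6, shared bases at chrM:7927-7969: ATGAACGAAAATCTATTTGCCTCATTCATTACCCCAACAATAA
In mt-Nd4l and mt-Nd4 the shared stretch is 7 bases, in capitals between the neighbouring bases of each gene.
mt-Nd4l and mt-Nd4, shared bases at chrM:10167-10173: aacctactacaATGCTAAaaattattctt
How the counting treated reads with several matches is not given in the sources used here, the counts name such copies by clone and could not be tied to these symbols, and the part of the copies in the low counts was not tested. Mt-Co1 and mt-Nd4 share a large part of their windows with other genes, and their values below carry this uncertainty.

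**Figure D1:**
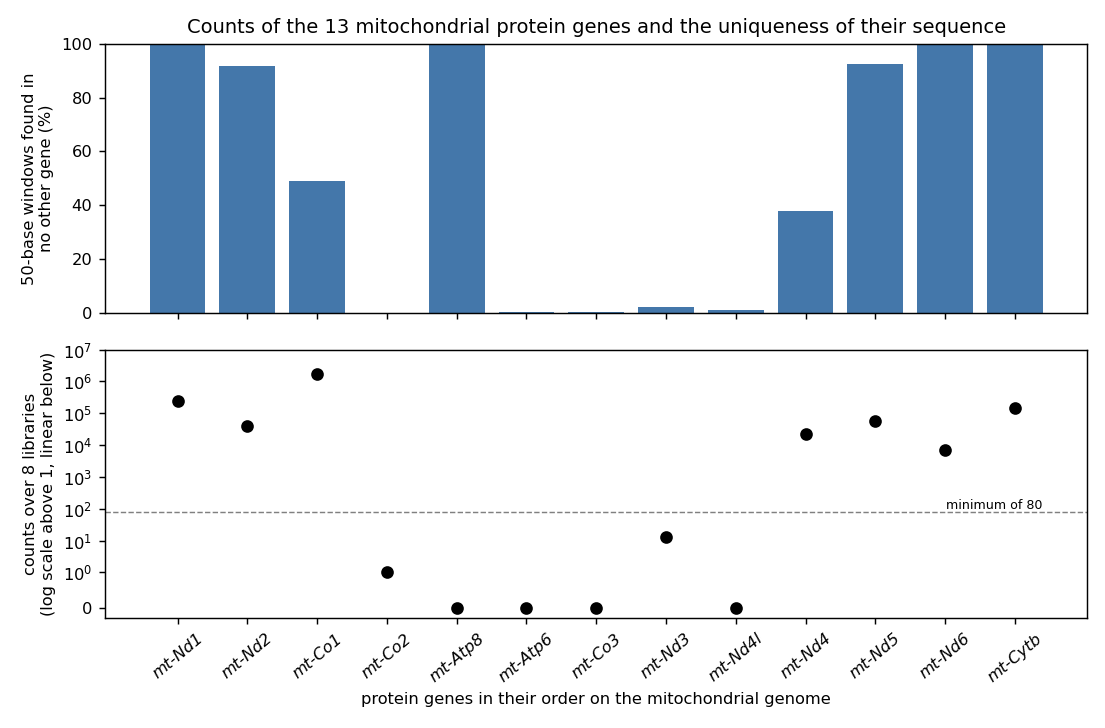
For the 13 mitochondrial protein genes in genome order, the bars (linear axis from 0 to 100%) give the share of 50-base windows found in no other annotated gene, and the points give the counts summed over the 8 libraries on an axis that is logarithmic above 1. The 5 genes with shares of at most 2.01% and mt-Atp8 lie below the minimum of 80 counts, and the other 7 genes lie at 6799 counts or more.

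Per kilobase of exon, mt-Co1, the catalytic subunit of cytochrome c oxidase, had a mean level of 3553 CPM over the 8 libraries, mt-Nd1 852, mt-Cytb 434, mt-Nd2 127, mt-Nd5 102, mt-Nd4 53.4 and mt-Nd6 43.2. Divided by the windows of 100 bases that no other gene shares, the level of mt-Nd4 was 147 CPM per kilobase and that of mt-Nd2 145, so the place of mt-Nd4 in this order depended on whether shared windows were counted in its length. Among nuclear subunits the highest levels per kilobase were 210.3 CPM for Cox6b1, 188 for Atp5a1, 176 for Cox4i1, 159 for Cox6a1 and 153 for Atp5b. Ndufa4l2 at 0.315 and Atp5l at 1.23 CPM per kilobase were the lowest of the nuclear members with a length. The length joins all annotated exons of a gene, 6443 bases in Atp5l, so the place of Atp5l depends on it. By counts, Cox7a1 with 581 and Atp5s with 1257 lay below Atp5l with 2405.

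The values of the mitochondrially encoded subunits had opposite signs in the 2 experiments. Of the 7, 3 were called in opposite directions, mt-Cytb, mt-Nd2 and mt-Nd4, against 6.34% of all genes. In experiment 1, 4 of the 7 were higher in KO and none was lower, and their median log2 fold change was 0.24, against a median of 0.01 over all genes. Under upper-quartile scaling and under library totals 6 of the 7 were higher. In experiment 2, 5 of the 7 were lower and none was higher, with a median of -0.66 against 0.01. In experiment 1, 27% of all genes tested were called higher and 55.1% were called in either direction, and in experiment 2, 8.29% were called lower and 15.8% in either direction. All 7 had a positive difference in experiment 1 and a negative one in experiment 2, a pattern that 3952 of the 14418 genes shared. The value of mt-Co1 in experiment 1 was only 0.02 and changed sign under other settings.

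Mt-Cytb, the subunit of complex III that carries both of its ubiquinone sites, moved most. Its level was 374 and 333 CPM in WT 1 and WT 2 and 721 and 652 CPM in KO 5 and KO 6. In experiment 2 it was 654 and 705 CPM in WT 3 and WT 4 and 273 and 263 CPM in KO 7 and KO 8. The genotypes did not overlap in either experiment, and the WT libraries of experiment 2 lay at the level of the KO libraries of experiment 1. Of all genes, 6.34% were called in opposite directions in the 2 experiments. Mkl1 followed the labels in both. No other check of the labels was made, and every signed difference here rests on them. For mt-Cytb, KO was 1.93-fold higher in experiment 1 (log2 fold change 0.95 ± 0.08, edgeR adjusted p = 4.31e-05) and 2.53-fold lower in experiment 2 (-1.34 ± 0.13, adjusted p = 0.00839).

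Mt-Nd4, a proton-pumping core subunit of complex I, was at 54.8 and 58.6 CPM in WT 1 and WT 2, 99.9 and 84.8 CPM in KO 5 and KO 6, 85.3 and 100.3 CPM in WT 3 and WT 4, and 51.8 and 53.2 CPM in KO 7 and KO 8. Mt-Nd2, another such subunit, was at 105 and 107 against 161 and 156 CPM and at 161 and 159 against 101 and 106 CPM in the same order. For both genes the KO libraries were all above WT in experiment 1 and all below WT in experiment 2. The changes of mt-Nd4 were 0.69 ± 0.09 (edgeR adjusted p = 0.0004) and -0.82 ± 0.12 (0.0182), and those of mt-Nd2 0.56 ± 0.06 (8.08e-05) and -0.63 ± 0.11 (0.0231).

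Mt-Nd5, the subunit of complex I at the far end of its membrane arm, was at 168 and 167 CPM in WT and 222 and 178 CPM in KO in experiment 1, and at 246 and 271 CPM in WT and 114 and 117 CPM in KO in experiment 2. Its fall in experiment 2 was 2.23-fold (-1.16 ± 0.12, edgeR adjusted p = 0.00902), while the difference of 0.24 ± 0.10 in experiment 1 did not pass the test (0.088). That difference passed under upper-quartile scaling (0.34, edgeR adjusted p = 0.0358), library totals (0.33, 0.0257) and no filter (0.21, 0.00703), and without KO 6 (0.40, 0.0435). Mt-Nd6, the only protein gene read from the other strand of mitochondrial DNA, was at 21.5 and 20.6 against 24.9 and 22.3 CPM in experiment 1 and at 29.1 and 26.1 against 17.5 and 17.4 CPM in experiment 2. It fell in experiment 2 (-0.66 ± 0.12, edgeR adjusted p = 0.0264) and its value in experiment 1 was 0.15 ± 0.09 (0.178), or 0.25 and 0.24 under upper-quartile scaling and library totals (0.0406 and 0.0456). Members of both strands were thus lower in KO in experiment 2.

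Mt-Nd1, which lies where the membrane arm of complex I meets the arm with the redox centres, was at 782 and 743 CPM in WT and 885 and 875 CPM in KO in experiment 1 and at 976 and 873 against 683 and 707 CPM in experiment 2. The rise in experiment 1 was small (0.20 ± 0.07, edgeR adjusted p = 0.0336) and was lost with no filter (adjusted p = 0.0627), in the fit of 4 groups and without each of WT 1, WT 2, KO 5 and KO 6 (0.119 to 0.389). In experiment 2 its value was -0.41 ± 0.14 (0.112), which passed in DESeq2 (0.0238), in the fit of 4 groups (0.0148) and in that fit without WT 4, KO 7 or KO 8 (0.0141 to 0.0444). Mt-Co1 was at 5755 and 5607 against 6027 and 5571 CPM in experiment 1, where the genotypes overlapped, and at 5865 and 5842 against 4511 and 4734 CPM in experiment 2. Neither value of mt-Co1 passed the test, 0.02 ± 0.08 and -0.34 ± 0.17 (edgeR adjusted p = 0.868 and 0.214), although the second passed it in DESeq2 (0.0384) and in edgeR's fit of 4 groups (0.0445).

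**Figure D2:**
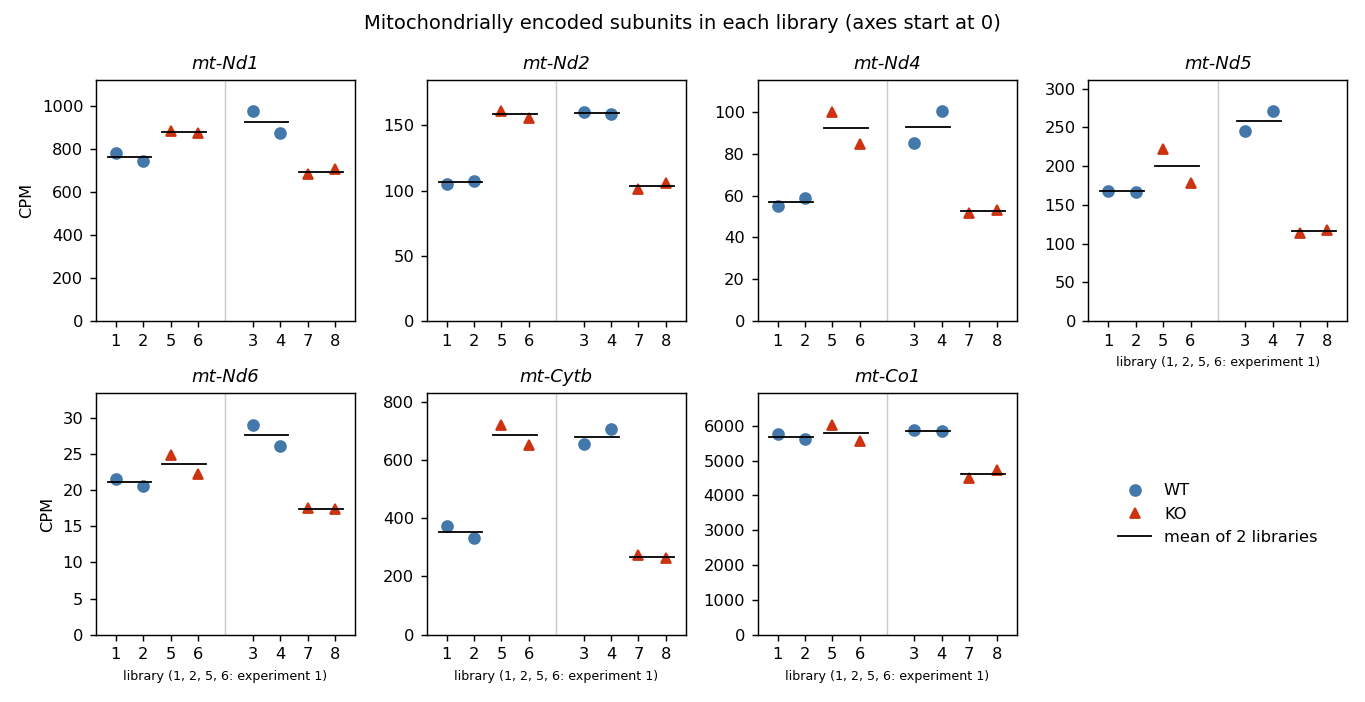
CPM of the 7 mitochondrially encoded members in each library, on linear axes from 0, with circles for WT, triangles for KO and a line for the mean of 2 libraries. In mt-Cytb the KO libraries of experiment 1 (721 and 652) and the WT libraries of experiment 2 (654 and 705) lie high, and the other 4 lie between 263 and 374.

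The mitochondrial ribosomal RNAs, transcribed from the same DNA, did not show this pattern. Mt-Rnr2 was at 13017 to 16747 CPM, and neither of its differences passed the test (0.02 and 0.16, edgeR adjusted p = 0.859 and 0.6). Mt-Rnr1 was at 1395 to 2119 CPM, and it was higher in KO in experiment 1 (0.31 ± 0.10, edgeR adjusted p = 0.0252), with a value of 0.16 ± 0.17 in experiment 2 (0.54). These 2 genes were chosen after their values were seen, and the libraries were made by a kit for mRNA, which enriches for poly(A) tails.

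As a share of all counts, the 7 mitochondrially encoded members held 0.71% and 0.706% in WT 1 and WT 2, 0.845% and 0.794% in KO 5 and KO 6, 0.745% and 0.791% in WT 3 and WT 4, and 0.57% and 0.608% in KO 7 and KO 8. The nuclear members held 0.627%, 0.648%, 0.561%, 0.58%, 0.608%, 0.643%, 0.588% and 0.648% in the same order. Of the summed CPM of all members, the mitochondrially encoded ones thus made up 60.1% and 57.8% in KO of experiment 1, above the 53.1% and 52.1% of its WT, and 49.3% and 48.4% in KO of experiment 2, below the 55.0% and 55.1% of its WT. These libraries are bulk RNA, in which fewer cells of a type and less RNA per cell cannot be told apart.

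The nuclear members were mostly lower in KO in experiment 1. Of the 78 that passed the filter (Ndufa4l2 did not), 46 were lower and 5 higher, against 28.1% and 27% of all genes tested, with a median log2 fold change of -0.23, a fall of 14.8%. Measured against the mean of their own WT libraries, 62 of 78 lay below it in KO 5 and 61 in KO 6. Upper-quartile scaling, under which the median of all genes went from 0.01 to 0.11, gave 34 lower and 10 higher. The calls rest on small differences with 2 libraries a group: in edgeR's fit of 4 groups, with no library left out, 34 were called. That fit takes its spread from both experiments. Without WT 1, WT 2, KO 5 and KO 6 in turn, the median in it was -0.23, -0.21, -0.22 and -0.24. A call lost in these fits without a library can thus be lost through the change of fit.

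By complex, 20 of 35 complex I members were lower in KO in experiment 1 and 2 higher (median -0.31), 1 of 4 in complex II was lower and none higher (-0.01), 5 of 8 in complex III were lower and 1 higher (-0.26), 12 of 14 in complex IV were lower and 1 higher (-0.25), and 8 of 17 in complex V were lower and 1, Atp5sl, higher (-0.19). Over all genes 28.1% were lower and 27% higher. Within complex I, 17 of the 28 accessory subunits, which surround the catalytic core, were lower (median -0.33), against 3 of the 7 nuclear core subunits that hold the redox centres (median -0.09). Whether complexes or subunit classes differ from each other was not tested.

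In experiment 2 most nuclear members did not pass the test. Replicates differed more there, with a mean chi-square per gene of 66.0 between the WT and 80.1 between the KO libraries. In experiment 1 these were 15.6 and 12.3, so fewer calls in experiment 2 do not mean that the members were unchanged. Ndufa6, Cox6a2, Cox7a2l and Atp5sl were higher in KO, Cox7a1 and Atp5k were lower, and 72 of the 78 were not called, with a median of -0.13. This median was -0.077 under upper-quartile scaling, -0.067 under library totals and -0.029 in the fit of 4 groups without KO 7. Over all genes 7.52% were called higher and 8.29% lower. Medians by complex were -0.09 in complex I, -0.05 in complex II, -0.18 in complex III, -0.12 in complex IV and -0.17 in complex V. In KO 7, 61 of 78 lay below the mean of their WT libraries, and in KO 8, 41. The number of nuclear members called moved with the fit: edgeR's fit of 4 groups called 19, of which 15 were lower and 4 higher. The shares of all genes above are from the fit of experiment 2 alone, and none is given for the fit of 4 groups.

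**Figure D3:**
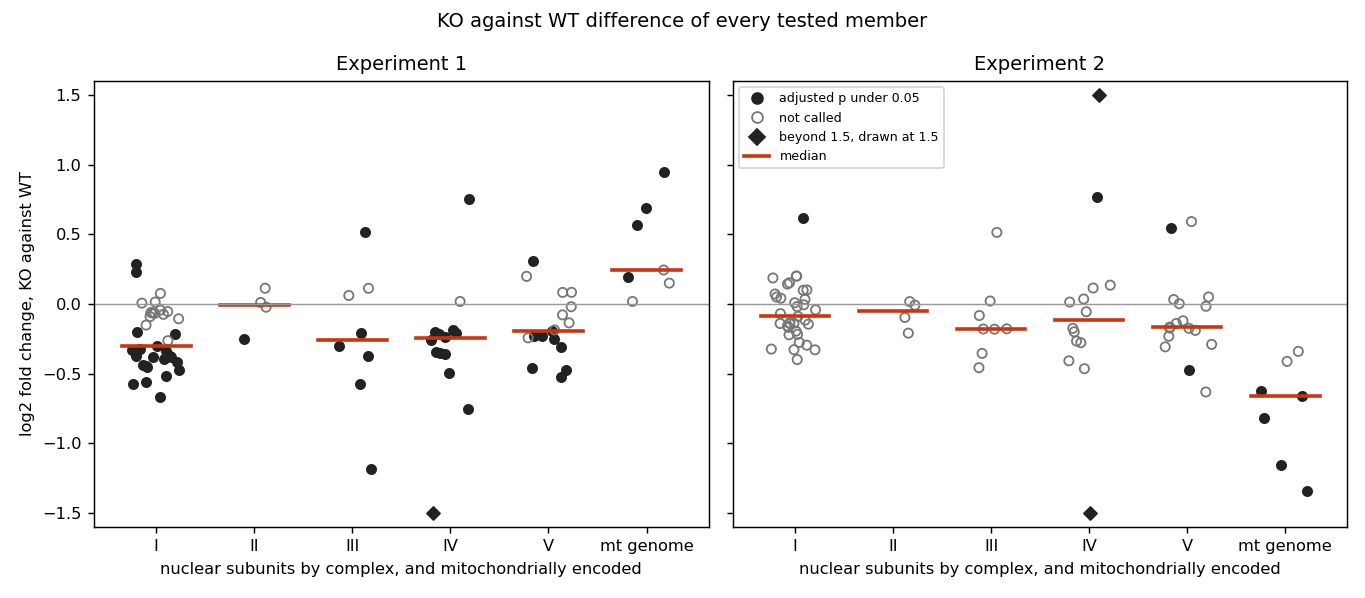
Log2 fold change of KO against WT for every tested member in experiment 1 (left) and experiment 2 (right), by complex for nuclear members and apart for mitochondrially encoded ones, with filled points for an edgeR adjusted p under 0.05 and a red line for the median. In experiment 1 the medians of complexes I, III, IV and V lie between -0.31 and -0.19 and that of the mitochondrially encoded genes at 0.24, and in experiment 2 the latter lies at -0.66 (Cox6a2 and Cox7a1 are drawn at the edge where they exceed 1.5).

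No nuclear member was called lower in both experiments, and only Atp5sl was called higher in both, against 2.25% and 2.13% of all genes. Of the 46 called lower in experiment 1, 44 were not called in experiment 2, and Cox6a2 and Cox7a2l were higher there. By sign alone, 37 of 78 were below 0 in both experiments, 2 above 0 in both, 25 lower and then higher, and 14 higher and then lower. Over all 14418 genes these counts were 3154, 3403, 3909 and 3952. Across the 78 genes the values of the 2 experiments had a Pearson correlation of -0.82 and a Spearman correlation of -0.44, and without Cox6a2 and Cox7a1 these were -0.33 and -0.40. Over all genes they were -0.23 and -0.14. Genes are not independent replicates, all share the same 8 libraries, and no p is given.

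Tested as one change shared by both experiments, 1 nuclear member was lower and 1 higher, against 3.41% and 3.72% of all genes (7.12% in either direction), although the median of the 78 was -0.19. The lower one was Ndufc1, an accessory subunit of complex I, named because it was the only one: it was at 20.4, 22.0, 20.1 and 22.4 CPM in WT and at 14.8, 14.2, 17.5 and 17.1 CPM in KO, without overlap (log2 fold change -0.42 ± 0.09, edgeR adjusted p = 0.0362). Its call was lost under upper-quartile scaling, library totals, no filter and no experiment term, and when any library but WT 3 was left out. The count depends on how the experiments are joined, since DESeq2 called 19 members, 18 of them lower, and the mean of both differences in the fit of 4 groups called 37, of which 35 were lower. The shares of all genes above belong to the additive edgeR fit. None is given for these 2 fits, so their counts have no background to be read against. Without WT 3 edgeR called Ndufc1 alone, without KO 8 it called 2 other members and neither of these, and without any other single library 0. None of the 7 mitochondrially encoded members was called (0 at an unadjusted p under 0.05 in edgeR, 0 in DESeq2), with a median of -0.16 that ran from -0.26 to -0.019 without single libraries. The mean of both differences in the fit of 4 groups called mt-Nd5 (-0.45, edgeR adjusted p = 0.00587) and mt-Nd6 (-0.25, 0.0285).

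The test of whether the KO-WT difference itself differs between the experiments called 28 of 78 nuclear members, 19 with a difference higher in experiment 2 and 9 with a difference lower in experiment 2, against 21% and 20.6% of all genes (41.6% in either direction). It called 6 of 7 mitochondrially encoded members, all lower in experiment 2. Their values were -2.30 ± 0.15 for mt-Cytb, -1.52 ± 0.16 for mt-Nd4, -1.41 ± 0.16 for mt-Nd5, -1.20 ± 0.10 for mt-Nd2, -0.82 ± 0.14 for mt-Nd6 and -0.62 ± 0.14 for mt-Nd1 (edgeR adjusted p from 0.000153 to 0.00965), and -0.37 ± 0.15 for mt-Co1 did not pass (0.0869), although it did in DESeq2 (0.0132), which called all 7. The call of mt-Nd1 was lost without WT 2 or KO 5 (edgeR adjusted p = 0.0517 and 0.0525). Of the nuclear members 15, 13, 17, 14 and 16 were called without WT 1, WT 2, WT 3, KO 5 and KO 6, and upper-quartile scaling gave 13 higher and 10 lower.

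**Figure D4:**
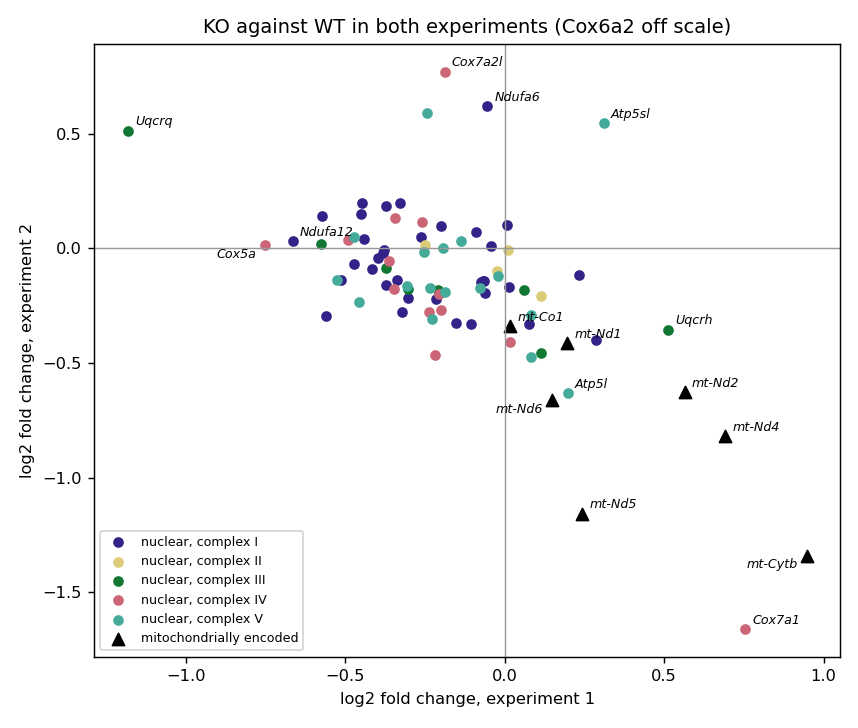
Log2 fold change of KO against WT in experiment 1 (horizontal) and experiment 2 (vertical) for the tested members, coloured by complex, with triangles for mitochondrially encoded genes and Cox6a2 outside the axes. All 7 triangles lie to the right of 0 and below 0, and 37 of the 78 nuclear members lie below 0 on both axes.

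Complex II, succinate dehydrogenase, has no mitochondrially encoded subunit and had the medians nearest to 0 of the 5 complexes. Sdha, its flavoprotein, was at 228 to 251 CPM in all 8 libraries, with values of 0.01 ± 0.06 and -0.01 ± 0.13 (edgeR adjusted p = 0.887 and 0.969). Sdhc, a membrane anchor, was at 88.2 to 99.7 CPM with -0.02 ± 0.06 and -0.10 ± 0.11 (0.751 and 0.558). Sdhb, the iron-sulphur subunit, was lower in KO in experiment 1, at 93.3 and 94.6 against 111 and 111 CPM (-0.25 ± 0.05, edgeR adjusted p = 0.00514), and was at 104 and 128 against 121 and 108 CPM in experiment 2, where the genotypes overlapped. The call of Sdhb did not hold in edgeR's fit of 4 groups (0.122) or without any of its libraries (0.268 to 0.309). Sdhd, the other anchor, was at 91.2 and 90.5 against 83.1 and 83.7 CPM in experiment 1 and at 86.4 and 81.1 against 98.3 and 95.4 CPM in experiment 2. Neither difference of Sdhd passed the test alone (0.11 and -0.21), except the first under upper-quartile scaling (0.21, edgeR adjusted p = 0.0117) and library totals (0.20, 0.0172). Their difference of -0.33 ± 0.10 did (edgeR adjusted p = 0.0307), though not with no filter (0.202) or without WT 1, WT 2, WT 3, KO 5, KO 6 or KO 8 (0.0536 to 0.131).

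Of complex I, Ndufa10, an accessory subunit of the membrane arm, was at 96.0 and 93.2 CPM in WT and 69.8 and 70.6 CPM in KO in experiment 1 and at 90.8 to 98.1 CPM in all 4 libraries of experiment 2. It fell in experiment 1 (-0.44 ± 0.06, edgeR adjusted p = 0.000308), as did Ndufc2 (-0.45 ± 0.07, 0.000612), another membrane-arm subunit, which was at 41.3 and 43.0 against 31.4 and 30.7 CPM and whose call was lost without WT 2 or KO 6 (0.0549 and 0.0526). Ndufa12, an accessory subunit of the peripheral arm, fell most of the complex, from 30.1 and 30.2 to 18.2 and 20.1 CPM (-0.67, edgeR adjusted p = 0.000247), and was at 26.9 to 32.5 CPM throughout experiment 2. Ndufa6, an accessory subunit with an LYR motif, had overlapping levels in experiment 1 (54.8 and 58.9 against 56.5 and 53.8 CPM) and was higher in KO in experiment 2, at 67.0 and 61.9 against 40.2 and 43.7 CPM (0.62 ± 0.11, edgeR adjusted p = 0.0249). Going the other way in experiment 1, Ndufs8, a core subunit with iron-sulphur clusters, rose from 32.7 and 33.2 to 38.8 and 42.1 CPM (0.29, edgeR adjusted p = 0.00911, lost in the fit of 4 groups and without any of its libraries), and its libraries overlapped in experiment 2.

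In complex III, Uqcrq, a small subunit close to cytochrome b, changed most. It was at 52.2 and 56.8 CPM in WT and 22.5 and 25.9 CPM in KO in experiment 1, a 2.27-fold fall (-1.18 ± 0.09, edgeR adjusted p = 2.03e-05). In experiment 2 it was at 35.4 and 41.6 CPM in WT and 45.0 and 64.9 CPM in KO, where the genotypes did not overlap but the difference of 0.51 ± 0.20 did not pass the test (0.148), except without KO 7 (0.78, edgeR adjusted p = 0.00608). The values of Uqcrq thus had the opposite sign to those of mt-Cytb, its partner in the complex, in both experiments. Uqcrb, which also binds near cytochrome b, fell in experiment 1 from 80.5 and 74.0 to 50.4 and 54.1 CPM (-0.58 ± 0.07, edgeR adjusted p = 0.000241) and was at 68.6 to 75.8 CPM in experiment 2. Uqcrh, the hinge protein, rose in experiment 1 from 63.0 and 67.3 to 96.8 and 90.7 CPM (0.51, edgeR adjusted p = 0.000283), a call lost in the fit of 4 groups and without any of its libraries. Uqcr11 was at 38.4 and 43.1 against 42.9 and 45.8 CPM and at 51.2 and 53.7 against 40.4 and 36.0 CPM, and its difference between experiments was -0.58 ± 0.13 (edgeR adjusted p = 0.0118), lost without WT 1 or KO 6 (0.0619 and 0.0519).

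Cytochrome c oxidase, complex IV, has nuclear subunits that exist as paralogues with different tissue use. Cox6a2, the form of heart and skeletal muscle, was at 15.6 and 15.1 CPM in WT 1 and WT 2 and at 1.06 and 1.47 CPM in KO 5 and KO 6. In experiment 2 it was at 1.26 and 1.12 CPM in WT and 14.3 and 20.9 CPM in KO. It was the member with the largest difference in both experiments, 12.2-fold lower in KO in the first (-3.60 ± 0.17, edgeR adjusted p = 2.7e-06) and 14.7-fold higher in the second (3.88 ± 0.26, 0.00456). Of its 50-base windows 96.7% were found in no other gene, the rest were shared with Itgad, which had 17 counts over the 8 libraries, and striated muscle markers summed to at most 0.384 CPM. Its paralogue Cox6a1, the form of most tissues, was at 89.9 to 129 CPM, fell in experiment 1 (-0.49 ± 0.06, edgeR adjusted p = 0.000196) and had a value of 0.04 in experiment 2 (0.855).

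Cox7a1, the muscle form of subunit VIIa, was at 1.18 and 1.58 against 2.38 and 2.30 CPM in experiment 1 and at 3.07 and 3.08 against 1.29 and 0.647 CPM in experiment 2. It was higher in KO in the first (0.75 ± 0.23, edgeR adjusted p = 0.0229) and lower in the second (-1.66 ± 0.39, 0.0456), the direction opposite to Cox6a2. The first call was lost in DESeq2 (adjusted p = 0.104), in edgeR's fit of 4 groups (0.0946) and in that fit without any of its libraries (0.141 to 0.363). Cox7a2, the widely expressed form, was at 55.5 to 89.0 CPM, with -0.22 (edgeR adjusted p = 0.0251) and -0.47 (0.081), and the first of these was lost under other scaling, in the fit of 4 groups and without any library. The second passed in DESeq2 (0.0497), with no filter (edgeR adjusted p = 0.0425), in the fit of 4 groups (0.0172) and without WT 3 or KO 7 (0.0368 and 0.00553). Cox7a2l was at 177 and 165 against 155 and 148 CPM in experiment 1 and at 71.1 and 94.2 against 151 and 131 CPM in experiment 2, so that WT 3 and WT 4 were the low libraries. Its rise in experiment 2 was 1.71-fold (0.77 ± 0.17, edgeR adjusted p = 0.0409), while its fall of -0.19 in experiment 1 did not hold in the fit of 4 groups (0.336) or under upper-quartile scaling (0.262).

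Cox5a, a nuclear subunit of the matrix side, fell from 90.3 and 93.3 to 54.4 and 55.5 CPM in experiment 1 (-0.75 ± 0.06, edgeR adjusted p = 2.35e-05), and lay between 78.7 and 85.9 CPM in experiment 2. Cox4i1, the main form of subunit IV, was at 296 and 300 CPM in WT and 251 and 251 CPM in KO in experiment 1 (-0.26, edgeR adjusted p = 0.00495), a call lost without any single library (0.147 to 0.173). Its hypoxia-induced paralogue Cox4i2 was below the minimum, with 38 of its 44 counts in KO 5 and KO 6. Ndufa4, once assigned to complex I and now placed in complex IV, was at 53.9 to 68.0 CPM, with -0.20 (edgeR adjusted p = 0.0332) and -0.27 (0.138, but 0.0369 in the fit of 4 groups). The first was lost in DESeq2 (0.0645), edgeR's fit of 4 groups (0.0937), upper-quartile scaling (-0.10, 0.246) and library totals (-0.11, 0.226). Without single libraries Ndufa4 ran from -0.25 to -0.13 in experiment 1 and was at -0.32 without KO 8 in experiment 2. Its hypoxia-induced paralogue Ndufa4l2 had 96 of its 107 counts in KO 5 and KO 6, the libraries in which the fibroblast markers were high, and the part of such cells in these counts was not tested. Cox6b1 was at 120 to 177 CPM and Cox8a at 76.0 to 101 CPM. Their partners Cox6b2 (64 counts), Cox8b (0) and Cox8c (0) were not tested.

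**Figure D5:**
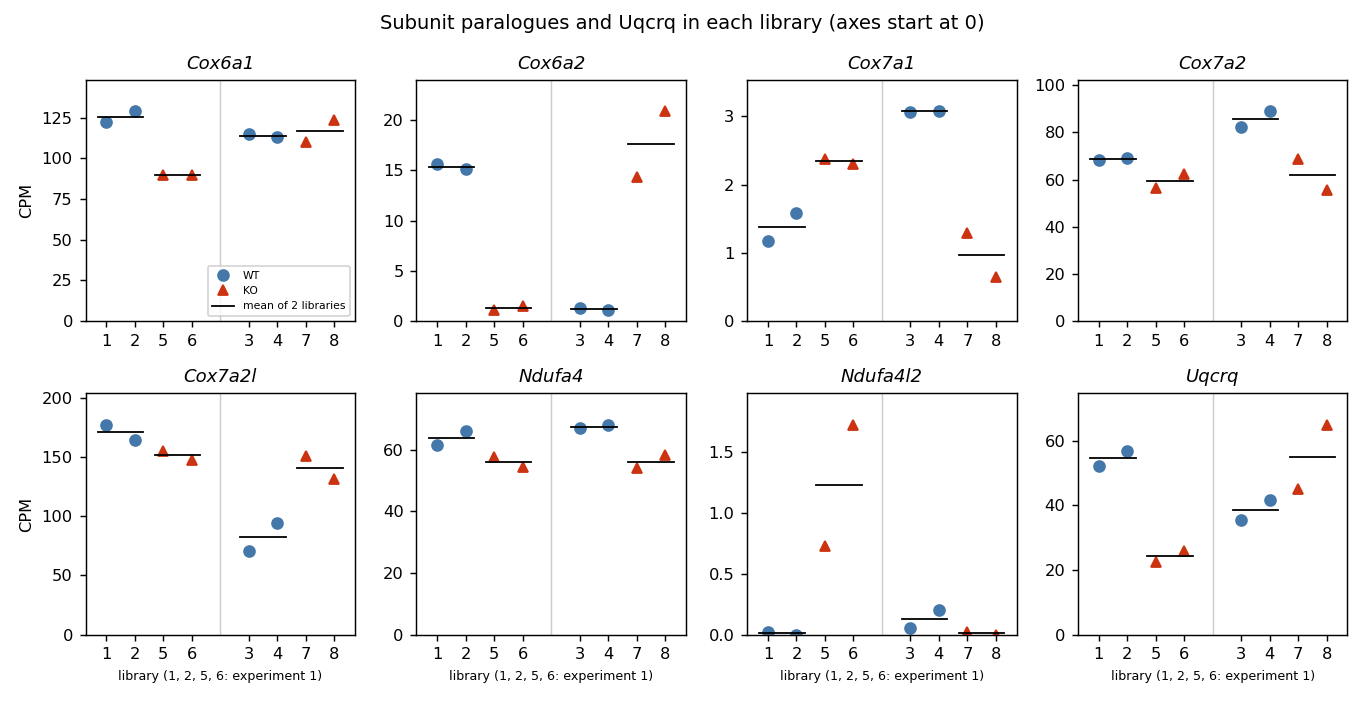
CPM of paralogous subunits of complex IV and of Uqcrq in each library, on linear axes from 0, with circles for WT, triangles for KO and a line for the mean of 2 libraries. Cox6a2 lies between 14.3 and 20.9 CPM in WT 1, WT 2, KO 7 and KO 8 and at 1.06 to 1.47 CPM in the rest, and Ndufa4l2 is highest in KO 5 and KO 6.

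Of the ATP synthase, Atp5b, the catalytic beta subunit, was at 719 and 693 against 478 and 511 CPM in experiment 1 (-0.53, edgeR adjusted p = 0.000316) and at 729.8 and 734 against 606 and 722 CPM in experiment 2 (-0.14, 0.557). Atp5a1, its alpha partner, was at 631 and 618 against 507 and 511 CPM in experiment 1 (-0.31, edgeR adjusted p = 0.00324). In the fit of 4 groups and without any of its libraries the call of Atp5a1 was lost, and that of Atp5b was lost without WT 1 or KO 5. Atp5f1, the b subunit of the peripheral stalk, fell from 204 and 197 to 145 and 147 CPM (-0.47 ± 0.06, edgeR adjusted p = 0.000216) and was at 178 to 202 CPM in experiment 2. Of the 3 genes for the c subunit of the proton-driven ring, Atp5g1 was lower in experiment 1 (-0.46, edgeR adjusted p = 0.00251, lost without WT 1, WT 2 or KO 5 at 0.0747 to 0.14), and Atp5g2 (-0.02) and Atp5g3 (-0.19) did not pass (0.858 and 0.0524), apart from Atp5g3 with no filter (0.00473). Only 61.7% of the windows of Atp5g2 were found in no other gene.

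The small membrane subunits Atp5k and Atp5l lay higher in WT 3 and WT 4 than in the other libraries. Atp5k was at 38.9 and 39.6 against 40.7 and 43.2 CPM in experiment 1 and at 52.2 and 55.3 against 39.7 and 37.8 CPM in experiment 2 (-0.47 ± 0.10, edgeR adjusted p = 0.0388, and 0.057 under upper-quartile scaling). Atp5l was at 9.54 to 10.4 CPM in WT 3 and WT 4 and at 5.90 to 8.63 CPM elsewhere, with a value of -0.63 ± 0.17 in experiment 2 that did not pass (0.066), except in DESeq2 (0.0384), in edgeR's fit of 4 groups (0.0137) and in that fit without WT 4 (0.0281) or KO 8 (0.019). Atp5sl, which is not a subunit but a factor with a related name that acts in complex I assembly, was at 17.8 and 20.4 against 25.1 and 22.6 CPM in experiment 1 and at 12.9 and 14.3 against 19.5 and 20.1 CPM in experiment 2. It was the only member called in the same direction in both (0.31 ± 0.10 and 0.55 ± 0.13, edgeR adjusted p = 0.028 and 0.0449) and over both together (0.43 ± 0.09, 0.0398), where 4.38% of all genes were called in the same direction in both and 6.34% in opposite directions. The call over both was lost with no filter (edgeR adjusted p = 0.0872), with no experiment term (0.207) and without any single library (0.0593 to 0.137), and that of experiment 1 in DESeq2 (0.0655) and without any of its libraries (0.0696 to 0.287).

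Promoters of the nuclear members were compared with motifs of factors known for respiratory genes, in RefSeq sequences of GRCm38.p6 from 250 bases before to 50 bases after each start. Of 79 members 66 had an entry. The palindromic NRF1 motif, capitals in Ndufa11 below, occurred in 5 of 66, or 7.58%, against 2.47% of tested genes and 1.07% of all genes with an entry. The core of ETS factors such as GABP (CCGGAAG, both strands) occurred in 16, or 24.2%, against 20.6% and 9.93%. The motif of YY1 (AAGATGGCG, both strands) occurred in 8, or 12.1%, against 3.73% and 1.64%, and TATAAA in 5, or 7.58%, against 8.88% and 15.7%. The CArG box, bound by serum response factor, the partner of MKL1, occurred in 0 of 66, against 1.56% of tested genes and 1.81% of all genes, which says only that these letters are not in this window. No searched motif contains another, the last letters of CCGGAAG can be the first of AAGATGGCG, and a match is a description of the sequence. Below are the 150 bases before the start of the members called lower in experiment 1 that had the smallest p among those with 1 entry and a motif there, read on the gene's strand, with the motif in capitals. They show CCGGAAG on the opposite strand (as CTTCCGG) in Cox6a1, Atp5h and Atp5e and the NRF1 motif in Ndufa11.
Cox6a1, chr5:115348959-115349108, minus strand: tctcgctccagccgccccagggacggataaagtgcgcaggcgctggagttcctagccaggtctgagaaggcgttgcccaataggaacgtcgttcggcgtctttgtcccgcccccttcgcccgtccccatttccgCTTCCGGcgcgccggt
Atp5h, chr11:115419920-115420069, minus strand: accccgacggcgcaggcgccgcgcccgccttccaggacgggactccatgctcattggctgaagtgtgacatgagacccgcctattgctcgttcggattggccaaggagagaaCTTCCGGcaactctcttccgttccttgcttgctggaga
Ndufa11, chr17:56717612-56717761, plus strand: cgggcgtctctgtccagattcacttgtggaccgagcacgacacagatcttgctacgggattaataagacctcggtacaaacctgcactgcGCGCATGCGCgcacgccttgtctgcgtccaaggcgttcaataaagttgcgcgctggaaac
Atp5e, chr2:174464102-174464251, minus strand: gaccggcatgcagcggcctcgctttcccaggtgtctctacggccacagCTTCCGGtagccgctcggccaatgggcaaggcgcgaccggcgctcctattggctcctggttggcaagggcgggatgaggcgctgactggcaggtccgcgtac
In experiment 1 Cox6a1 fell by 0.49, Ndufa11 by 0.38, Atp5h by 0.25 and Atp5e by 0.23 on the log2 scale, and in experiment 2 none of the 4 was called. Without any library of experiment 1 the calls of Ndufa11, Atp5h and Atp5e were lost, and that of Atp5e also in the fit of 4 groups and under both other scalings.

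Genes that serve the chain were counted in the same way, where 28.1% of all genes were lower and 27% higher in experiment 1 and 8.29% and 7.52% in experiment 2. Of 48 assembly factors 18 were lower and 4 higher in KO in experiment 1 (median -0.19) and 4 lower and 1 higher in experiment 2 (0.02). Pet100, an assembly factor of complex IV, was higher in experiment 1 (0.57 ± 0.09, edgeR adjusted p = 0.000764) with a value of -0.49 in experiment 2 (0.052, but 0.031 in DESeq2 and 0.00758 in edgeR's fit of 4 groups), and Timmdc1, one of complex I, was lower in experiment 1 (-0.69 ± 0.09, 0.000268). Of 20 electron carriers and partners 11 were lower and none higher in experiment 1 (median -0.36). In experiment 2, 1 was lower and 1 higher. Cycs, cytochrome c, was at 36.5 and 34.8 against 10.9 and 13.6 CPM in experiment 1, a 2.92-fold fall (-1.55 ± 0.11, edgeR adjusted p = 2.28e-05), and at 23.7 and 33.1 against 27.0 and 29.1 CPM in experiment 2. Cyc1, the cytochrome c1 of complex III that the symbol pattern leaves out, fell in experiment 1 (-0.66 ± 0.07, edgeR adjusted p = 0.000111). Coq7, an enzyme of ubiquinone synthesis, fell 2.13-fold there (edgeR adjusted p = 7.75e-05).

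The same shares of all genes, 28.1% and 27% in experiment 1 and 8.29% and 7.52% in experiment 2, stand beside the next lists. Of 17 TCA cycle enzymes 11 were lower and 1 higher in experiment 1 (median -0.33), Pdha1 (-0.41, lost without any library of experiment 1) and Mdh2 (-0.55, lost without KO 5) among them, and 1 was lower in experiment 2. Of 22 genes for the expression of mitochondrial DNA 11 were lower and 4 higher in experiment 1 (median -0.22) and 2 lower in experiment 2 (0.03). Among them Tfam, which packages mitochondrial DNA and starts its transcription, was lower in experiment 1 (-0.28 ± 0.07, edgeR adjusted p = 0.0117) with -0.07 in experiment 2 (0.7). Lrpprc, which stabilizes mitochondrial mRNAs, was lower in experiment 1 (-0.39 ± 0.06, 0.000624) with 0.19 in experiment 2 (0.486). In the fit of 4 groups Lrpprc was at 0.43 in experiment 2 without KO 7 (edgeR adjusted p = 0.0069) and at -0.056 without KO 8 (0.621). Polrmt, the mitochondrial RNA polymerase, had -0.21 and 0.41 (0.118 and 0.0934), of which the first passed with no filter (0.0288) and the second in the fit of 4 groups (0.0341). The call of Tfam was lost under upper-quartile scaling (edgeR adjusted p = 0.0655) and library totals (0.0569), that of Lrpprc in the fit of 4 groups (0.0597), and both without any library of experiment 1 (0.104 to 0.222). Trmt10c (-0.79) and Mterf3 (-0.65) were lower in experiment 1.

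Of 12 regulators of mitochondrial biogenesis 5 were lower and 1 higher in experiment 1 and 1 lower and 1 higher in experiment 2, the latter near the 8.29% and 7.52% of all genes. Ppargc1a, the coactivator best known for this role, had 20 counts over the 8 libraries and was not tested. Its relative Ppargc1b was at 3.57 and 4.22 against 3.03 and 2.55 CPM in experiment 1 and at 1.78 and 1.01 against 3.76 and 4.58 CPM in experiment 2, where it was higher in KO (1.58 ± 0.35, edgeR adjusted p = 0.0405). Esrra, a nuclear receptor that works with both, was lower in experiment 1 (-0.54 ± 0.07, edgeR adjusted p = 0.000339) with 0.00 in experiment 2 (0.992). Nrf1 (-0.02 and -0.20) and Gabpa (0.11 and -0.14) did not pass in either experiment. Gabpa passed in experiment 1 under upper-quartile scaling and library totals (0.22 and 0.21, edgeR adjusted p = 0.0259 and 0.0267), and Nrf1 in experiment 2 without WT 4 (-0.35, 0.0241). Myc fell 3.72-fold in experiment 1 (-1.90 ± 0.13, edgeR adjusted p = 1.43e-05). Nfe2l2, a regulator of antioxidant genes, was at 854 and 829 CPM in WT 3 and WT 4 and at 343 to 455 CPM in the other 6 libraries.

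Markers of other cells moved with these groups. Of the 7 fibroblast markers tested, 6 were higher in KO in experiment 1 (median 4.69) and none was called in experiment 2 (Col3a1 5.99 and Pdgfra 6.61 in experiment 1). Of 10 proliferation markers 9 were lower in KO in experiment 2 (median -1.13, Plk1 -1.63 and Ccnb1 -1.28), where WT 3 and WT 4 were the high libraries, and 4 were higher and 2 lower in experiment 1. Of 10 macrophage markers 5 were higher and 4 lower in experiment 1 and 2 higher and 2 lower in experiment 2. Beside these lists of markers, 27% of all genes were higher and 28.1% lower in experiment 1, and 7.52% and 8.29% in experiment 2. Adgre1, the F4/80 antigen, was at 8328 and 7102 against 1929 and 1669 CPM in experiment 1 and at 2678 and 2720 against 4874 and 5264 CPM in experiment 2, and Itgam had -1.03 and 1.34, the first lost without WT 1, KO 5 or KO 6. Adgre1 and Itgam were picked by their interaction p and do not stand for the list. The interaction test called 2 of the 10 macrophage markers as higher in experiment 2 and 4 as lower, against 21% and 20.6% of all genes. The part of these cells and states in the differences of the respiratory chain was not tested.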

How the data were processed

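Bulk RNA-seq counts of 8 BMDM libraries, 2 WT and 2 KO in each of 2 experiments, were analysed. The authors deposited whole-number counts per gene symbol, not normalized, from a stranded mRNA kit, made with STAR 2.7.0f, featureCounts of Subread 1.6.4 and DESeq2 1.22.1 on GRCm38 per the submitters' processing notes, while the annotation release, the strand setting and the treatment of multiply mapped reads are not given in the sources used here. Deposited normalized values, scaled separately in each experiment, were not used. The members and gene lists were chosen with earlier results of these data known.

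Genes passing filterByExpr by genotype (14418, with 99.9% of the counts) were scaled by TMM and tested with edgeR 4.0.16 in R 4.3.3 (robust quasi-likelihood F test, Benjamini-Hochberg adjustment, threshold 0.05) in experiment 1 alone, in experiment 2 alone, in both with experiment as an additive term, and for the interaction of genotype and experiment. Standard errors were obtained as log2 fold change over the root of F. Libraries were left out in turn in the same fits, or in 1 fit of 4 groups for single experiments and the interaction, where a lone library is assumed to vary like the other groups. Other alternatives used DESeq2 1.42.0, limma-voom (limma 3.58.1), upper-quartile scaling, library totals without TMM, other filters, no mitochondrially encoded genes, no experiment term, and an adjusted p under 0.01. Shared windows were counted on GENCODE M21 transcripts. The text names every mitochondrially encoded member, all of complex II, the 3 members of each other complex with the smallest interaction p, members called alike in both experiments, paralogues, 8 regulators and the 2 genes of each list with the smallest interaction p. Ndufc1, Ndufa12, Ndufs8, Uqcrh, Atp5a1, Atp5b, Cyc1, mt-Rnr1 and mt-Rnr2 were added after their values were seen.

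Replicate libraries differed by more than counting noise (mean chi-square per gene from 12.3 to 80.1), so none was a copy of another. Counts of 14418 genes were simulated with 200 changed by a log2 fold of 1. The design of experiment 1 recovered 57.5% with 16 false calls, that over both 73.5% with 10 and the interaction test 27% with 7. The simulated spread came from all 8 libraries together, whereas real replicates differed less in experiment 1 than in experiment 2. The run over both held no interaction, and experiment 2 alone was not simulated. These shares thus do not give the power of the fits on the real counts. Overlapping and antisense genes, and genes with near-identical copies, are uncertain as far as counting could split them.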

Additional observations from a re-analysis of the deposited data

Results flagged for a closer look

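The KO-WT difference itself differed between the experiments, by edgeR's interaction test with Benjamini-Hochberg adjustment, in 28 of 78 nuclear and 6 of 7 mitochondrially encoded members, against 41.6% of all genes. The values below are the log2 difference of experiment 2 less that of experiment 1. Among mitochondrially encoded subunits they were -2.30 for mt-Cytb, -1.52 for mt-Nd4, -1.41 for mt-Nd5, -1.20 for mt-Nd2, -0.82 for mt-Nd6 and -0.62 for mt-Nd1, and KO was above WT in experiment 1 and below it in experiment 2 in all of them.

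Of the 28 nuclear members 18 are named here, by the rule for named genes. In complexes I to III the difference was higher in experiment 2 for Ndufa6 (0.66), Ndufc2 (0.59), Ndufa10 (0.47), Uqcrq (1.68) and Uqcrb (0.59), and lower for Sdhd (-0.33) and Uqcr11 (-0.58). In complex IV it was higher for Cox6a2 (7.48), Cox7a2l (0.95), Cox5a (0.75), Cox6a1 (0.52), Cox8a (0.47) and Cox4i1 (0.36), and lower for Cox7a1 (-2.42) and Cox6b1 (-0.44). In complex V it was higher for Atp5f1 (0.51) and lower for Atp5l (-0.84) and Atp5k (-0.57). The call of Cox4i1 was lost under upper-quartile scaling (edgeR adjusted p = 0.0517), library totals (0.0603) and no filter (0.0781), and without each library other than KO 7 (0.0508 to 0.12). Cox6b1 was lost without a filter (edgeR adjusted p = 0.0538) and without each library other than KO 7 (0.0513 to 0.128). Atp5l was lost without WT 2 or KO 5 (edgeR adjusted p = 0.062 and 0.0692), Atp5f1 without WT 1 or KO 5 (0.051 and 0.0503), and Cox6a1 and Cox8a without WT 2 (0.0528 and 0.056).

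A single library stood apart from the others of its genotype in 1 gene named above. Sdha was at 251 CPM in WT 3 and at 230.3 to 233 CPM in the other 3 WT libraries, a gap beyond Dixon's 95% critical value, which chance exceeds in about 1 of 20 groups.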

How the results depend on the processing

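No paired analysis was possible because the libraries are numbered 1 to 4 in WT and 5 to 8 in KO and share no replicate number, so no fit with a replicate block was made. No called value and no median changed sign, while 135 values of single genes that were called in neither fit did, Sdhb in experiment 2 and mt-Co1 in experiment 1 among them. Upper-quartile scaling and library totals without TMM moved the median log2 fold change of nuclear members from -0.23 to -0.13 and -0.14 in experiment 1, from -0.13 to -0.077 and -0.067 in experiment 2 and from -0.19 to -0.12 and -0.12 over both, and that of mitochondrially encoded members from 0.24 to 0.34 and 0.33 in experiment 1, from -0.16 to -0.085 and -0.085 over both and, by library totals, from -0.66 to -0.60 in experiment 2. Over both experiments the 2 nuclear calls became 1 under upper-quartile scaling and 1 under library totals, 19 in DESeq2, 37 (and 2 mitochondrially encoded) as the mean of both differences in the fit of 4 groups, and 0 without a filter, 0 without the experiment term and 0 at an adjusted p under 0.01 (edgeR, with 23, 18 and 25 at an unadjusted p under 0.05). In experiment 2 the 6 nuclear calls became 19 in the fit of 4 groups and 1 at an adjusted p under 0.01, where the 5 mitochondrially encoded ones became 2. At that threshold 10 of the 28 nuclear interaction calls passed. Leaving out each library gave 10 to 16 nuclear calls in experiment 1 and 9 to 16 in experiment 2, where the fit also changed to that of 4 groups, which alone gave 34 and 19, 0 to 2 over both (edgeR, where the fits with 0 had 13 to 22 at an unadjusted p under 0.05) and 13 to 39 for the interaction. Medians in these fits without each library ran from -0.13 to -0.029 in experiment 2, from -0.20 to -0.13 over both and from 0.10 to 0.20 for the interaction in nuclear members, and from 0.19 to 0.40 in experiment 1, from -0.70 to -0.60 in experiment 2, from -0.26 to -0.019 over both and from -1.24 to -1.14 for the interaction in mitochondrially encoded ones. Of the other values 85 counts of calls stayed within 1.5 times, which does not mean the same members, and 57 medians and 16 shares of counts moved by less than the spread between replicates. Of the values of single genes 3251 kept their direction and side of the threshold, 118 passed it and 153 lost it. For all of these changes the cause was not tested, and the share of all genes called under the other settings is not given. With 2 libraries a group, the design of experiment 1 recovered 57.5% of simulated log2 changes of 1. These were drawn with the spread of all 8 libraries, so the power of experiment 1 itself was not measured.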

Other observations

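Other genes of the organelle and of translation were described by the same counts, beside 28.1% of all genes lower and 27% higher in experiment 1 and 8.29% and 7.52% in experiment 2. Of 23 genes of the mitochondrial import machinery, which brings the nuclear subunits into the organelle, 16 were lower and 1 higher in KO in experiment 1 (median -0.41) and 2 lower and none higher in experiment 2 (0.02). Hspa9, the import motor of the matrix, was at 912 and 867 against 221 and 242 CPM in experiment 1, a 3.87-fold fall (-1.95 ± 0.07, edgeR adjusted p = 1.21e-06), and at 383 and 412 against 688 and 1350.0 CPM in experiment 2 (1.36 ± 0.34, 0.058). The latter passed in DESeq2 (0.000176), in edgeR's fit of 4 groups (0.0081), under library totals (0.0451) and without WT 4 (0.0449), and was 1.79 without KO 7 (0.000354) and 0.79 without KO 8 (0.00392). The co-chaperonin Hspe1 had -0.63 and 0.30 (edgeR adjusted p = 0.000257 and 0.156, the latter 0.0441 in the fit of 4 groups). Of 76 mitochondrial ribosomal proteins 42 were lower and 4 higher in experiment 1 (median -0.31) and 4 lower and 1 higher in experiment 2 (-0.04), with Mrpl45 at -1.26 and Mrps6 3.03-fold higher in experiment 1. Of 82 cytosolic ribosomal proteins 69 were lower and 2 higher in experiment 1 (median -0.43), and 19 were higher and none lower in experiment 2 (0.39), Rpl26 (-0.63 and 0.65) and Rpl37 (-0.46 and 0.57) among them. The interaction test called 67 of the 82 cytosolic ribosomal proteins as higher in experiment 2 and 1 as lower, against 21% and 20.6% of all genes.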
